A study of Mus musculus with 4 samples.

Results

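Toll-like receptors, their co-receptor CD14 and the adaptor MyD88 were described in microglia of cuprizone-fed mice with and without PRMT1. The 10 genes are Tlr1, Tlr2, Tlr3, Tlr4, Tlr6, Tlr7, Tlr9, Tlr13, Cd14 and Myd88, taken by symbol from the 32285 genes of the count tables, and all 10 had enough unique molecular identifiers (UMIs, each standing for 1 captured transcript) to be tested. Cells positive for CD45 and CD11b, a gate that admits microglia, border macrophages, monocytes and neutrophils, were sorted from enzymatically dissociated brain and sequenced on the 10x Genomics 3′ platform. The 4 libraries came from 2 PRMT1FL mice, which the labels call wild type, and 2 PRMT1Cx3cr1-KO mice. Both groups were given 0.2% cuprizone, a copper chelator that kills oligodendrocytes and strips myelin, for 5 wk. Both carried floxed Prmt1 alleles on the C57BL/6 background, and both were injected with tamoxifen. In PRMT1Cx3cr1-KO mice the tamoxifen-activated Cre recombinase is driven from the Cx3cr1 locus, which microglia and border macrophages use. The labels give an age of 5 to 6 wk for the diet, whereas the study's methods give that age for the tamoxifen.

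PRMT1 is the main enzyme that places asymmetric dimethyl marks on arginine residues of histones and signalling proteins. Toll-like receptors recognise microbial or damage-derived molecules with a leucine-rich ectodomain and signal through a cytoplasmic TIR domain. TLR1, TLR2, TLR4 and TLR6 sit at the cell surface, where TLR2 pairs with TLR1 or TLR6 to bind lipopeptides and TLR4 binds lipopolysaccharide that CD14 hands over. TLR3, TLR7, TLR9 and TLR13 sit in endosomes and bind double-stranded RNA, single-stranded RNA, unmethylated CpG DNA and bacterial ribosomal RNA. MyD88 couples every receptor of this list except TLR3 to NF-κB, and TLR3 signals through TRIF instead. In the brain microglia and other myeloid cells carry most of these receptors, and TLR3 is also found on astrocytes.

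Promoter sequences are shown for members whose levels are described below with the inflammatory or the interferon state. They are limited to members whose RefSeq window held bases outside the annotated exons. Windows of 250 bases before a RefSeq transcript start were matched for 7 of the 10 members, 9 windows in all. The lines give the base pairs of a window that overlap no annotated exon, read 5′ to 3′ on the gene's strand in the GRCm38.p6 build. Capitals mark a motif match. Tlr2 is at chr3:83841768-83841858 on the minus strand and Myd88 at chr9:119340042-119340268 on the minus strand. The Myd88 stretch lies within the annotated span of the gene (chr9:119335934-119341411). It is thus upstream of a RefSeq start but not of every annotated exon.
Tlr2: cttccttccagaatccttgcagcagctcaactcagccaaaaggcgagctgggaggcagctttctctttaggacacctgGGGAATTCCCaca
Myd88: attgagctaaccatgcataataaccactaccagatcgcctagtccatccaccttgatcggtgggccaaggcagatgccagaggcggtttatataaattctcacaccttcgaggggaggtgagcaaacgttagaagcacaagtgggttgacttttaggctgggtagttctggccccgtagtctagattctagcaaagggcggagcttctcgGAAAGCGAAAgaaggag

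The capitals in Tlr2 hold 2 overlapping matches, 1 per strand, to GGGANTTCC, a form of the NF-κB site. That motif, searched on both strands, was in 470 of 32851 windows of the same length (1.43%). The capitals in Myd88 match the core of an interferon-stimulated response element, GAAA repeated after any 2 bases, which 978 windows held on either strand (2.98%). Tlr6 also had overlapping matches to that core in 1 of its windows, although its level in the interferon state was among its lowest. Tlr9 had a match to TGANTCA, an AP-1 site held by 6.75% of windows. The windows of Tlr1, Tlr3 and Tlr13 held no match to any of these motifs, although Tlr3 was highest in the interferon state. A match describes the letters and not the use of a site.

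By the GENCODE annotation of GRCm38, Tlr1 (chr5:64924679-64933563) and Tlr6 (chr5:64952031-64960097) are neighbouring paralogues on the minus strand, and reads from sequence that they share could not be assigned by unique counting. Tlr2 (chr3:83836272-83841767), Tlr3 (chr8:45395665-45411080), Tlr7 (chrX:167304929-167330558) and Myd88 (chr9:119335934-119341411) are on the minus strand. Tlr4 (chr4:66827584-66930284), Tlr9 (chr9:106222598-106226883) and Tlr13 (chrX:106143204-106160493) are on the plus strand. Counts from 3′ libraries are not per length. Levels are compared between samples and states for each gene. Where UMI counts of different genes are set side by side, they describe depth.

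The 4 libraries held 76943248 to 99559644 UMIs, and 40869 cells passed the filters, of which 39624 fell in microglial clusters. Any pair of libraries shared 31 to 46 cell barcodes. Prmt1 itself was measured at 90.9 and 83.9 CPM (UMIs of the gene per 1000000 UMIs of the summed cells) in the PRMT1FL microglia and at 70.3 and 70.6 CPM in the PRMT1Cx3cr1-KO microglia, a log2 fold change of -0.39 ± 0.07 (SE; edgeR adjusted p = 0.065). These 3′ tags need not lie in the deleted exons, so they do not check the deletion. Cx3cr1, named after its values were seen because the Cre allele is at this locus, fell by 0.90 on the log2 scale (edgeR adjusted p = 0.0123). Whether the PRMT1FL mice carried a Cre allele is not given in the sources used here, so loss of PRMT1 and the Cre allele cannot be told apart. PRMT1Cx3cr1-KO mouse 2 stood apart with 563 of the 708 Ms4a7 phagocyte-like cells and with 545 MHC class II and CD11c-like cells, against 1168 to 1898 in the other libraries. The summed level of 5 erythroid genes in microglia was 243 and 94.2 CPM in PRMT1FL mice and 0.0613 and 0.0212 CPM in PRMT1Cx3cr1-KO mice.

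Summed over all microglia of a mouse, the levels of the 10 genes differed little between genotypes. Cd14 stood at 708 and 711 CPM in PRMT1FL mice and at 812 and 721 CPM in PRMT1Cx3cr1-KO mice. The PRMT1Cx3cr1-KO mice were both above the PRMT1FL mice, by less than they differed from each other. Tlr2 stood at 217 and 197 CPM against 248 and 222 CPM, again without overlap and with a gap smaller than the spread within either genotype. Tlr1, one of the partners of TLR2, was lower in both PRMT1Cx3cr1-KO mice, at 19.9 and 18.5 CPM against 21.5 and 21.3 CPM. For Tlr6, its other partner, the values were 8.54 and 8.46 CPM against 7.92 and 8.39 CPM. For Tlr4 they were 13.8 and 13.4 CPM against 11.7 and 13.6 CPM, so that the genotypes overlapped.

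Among the endosomal receptors, Tlr13 separated the genotypes most clearly, with 41.4 and 39.0 CPM in PRMT1FL mice against 46.8 and 53.9 CPM in PRMT1Cx3cr1-KO mice. Tlr7 was at 76.3 and 69.1 CPM against 72.4 and 64.1 CPM. Tlr3 was at 18.03 and 18.9 CPM against 20.8 and 17.98 CPM. Both of these overlapped between genotypes. Tlr9 was the gene with the fewest molecules, 92 to 113 UMIs per library, and its range of 1.09 to 1.3 CPM did not separate the genotypes. Myd88 was at 23.5 and 22.9 CPM against 27.1 and 23.7 CPM, both PRMT1Cx3cr1-KO mice above by a margin that mouse 1 largely set.

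**Figure D1:**
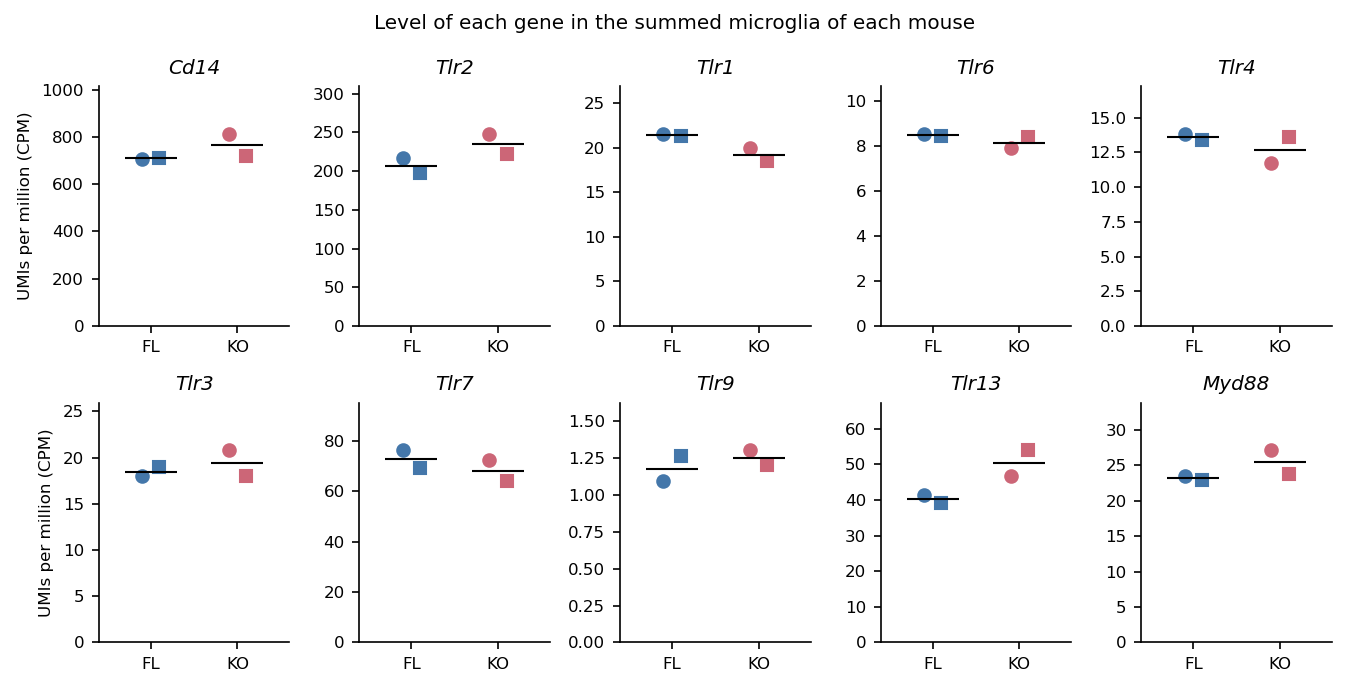
Level of each of the 10 genes in the summed microglia of each mouse, in CPM on axes that start at 0. Circles are mouse 1 and squares mouse 2 of PRMT1FL (FL, blue) and PRMT1Cx3cr1-KO (KO, red), and the line is the mean of the 2 mice. Tlr13 shows the widest gap relative to its level, 39.0 to 41.4 CPM against 46.8 to 53.9 CPM.

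In the edgeR quasi-likelihood test across 13802 genes, none of the 10 passed an adjusted p of 0.05, against 0.826% of all genes tested (0.558% higher and 0.268% lower in PRMT1Cx3cr1-KO). DESeq2 and limma voom also called none. At an unadjusted p of 0.05, 2 of the 10 passed (Tlr1 and Tlr13), against 19.8% of all genes. The genotypes did not overlap for 6 of the 10, against 56% of all genes. Tlr13 had the largest rise, a log2 fold change of 0.25 ± 0.08 (SE; edgeR adjusted p = 0.15). Tlr1 had the largest fall, -0.23 ± 0.08 (edgeR adjusted p = 0.169). By a normal approximation, the 95% interval of the log2 fold change ran from -0.14 to 0.22 for Cd14 (estimate 0.04). For Myd88 it ran from -0.12 to 0.24 (estimate 0.06). The other estimates were 0.11 for Tlr2, 0.01 for Tlr9, -0.01 for Tlr3, -0.13 for Tlr6, -0.17 for Tlr7 and -0.18 for Tlr4, with SEs of 0.08 to 0.19 and adjusted p-values of 0.286 to 0.981 for these 6. The median over the 10 was 0.00, as it was over all genes. Without PRMT1Cx3cr1-KO mouse 1, 3 of the 10 passed in edgeR: Tlr1 (-0.31, adjusted p = 0.0178), Tlr7 (-0.28, adjusted p = 0.029) and Tlr13 (0.33, adjusted p = 0.00729), but that fit called 18.1% of all genes (9.12% higher and 8.94% lower). The sums also mix states in different shares, and MHC class II and CD11c-like cells were 17.3, 18.1, 11.5 and 5.10% of the microglia in the order of PRMT1FL mouse 1, mouse 2, PRMT1Cx3cr1-KO mouse 1 and mouse 2. Each p-value sets the difference between genotypes against the spread between 2 mice of a genotype, which edgeR estimates with information shared across genes. An exact 2-sided permutation test of 2 against 2 cannot go below 0.333.

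The rest of the pathway was read from 88 genes, of which 87 were tested. Ccl2, the chemokine that draws monocytes and a target of these receptors, was the 1 gene called, at 45.1 and 42.5 CPM in PRMT1FL mice and 86.7 and 85.4 CPM in PRMT1Cx3cr1-KO mice. Its log2 fold change was 0.90 ± 0.07 (SE; edgeR adjusted p = 0.0109), and the mice did not overlap. The median log2 fold change over the 87 genes was -0.06. At an unadjusted edgeR p of 0.05, 26 of the 87 passed, against 19.8% of all genes. Among the 15 cytokine and chemokine targets, the other 14 did not pass, and their estimates ran from -0.55 for Ccl5 to 1.10 for Cd40. Ccl5, a chemokine for T cells, was at 45.2, 47.6, 54.1 and 12.3 CPM in the order of PRMT1FL mouse 1, mouse 2, PRMT1Cx3cr1-KO mouse 1 and mouse 2. In that sequence the low value is that of PRMT1Cx3cr1-KO mouse 2 alone.

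No gene of the other 7 pathway lists passed. The estimates among 4 further Toll-like receptors ran from -1.76 for Tlr11 to 2.18 for Tlr8, which had 14 and 9 UMIs in all microglia of PRMT1FL mouse 1. Co-receptors and ligand carriers ran from -0.42 for Cd36, a scavenger receptor that works with TLR2 and TLR6, to -0.11 for Ly86, the partner of CD180. Genes of receptor folding and trafficking ran from -0.31 for Pld3, a lysosomal nuclease, to 0.13 for Hsp90b1, the chaperone that folds these receptors. Adaptors ran from -0.34 for Scimp to 0.11 for Tirap, which bridges TLR2 and TLR4 to MyD88. Kinases and ubiquitin ligases ran from -0.20 for Ikbke to 0.55 for Tab1, a subunit of the TAK1 complex. Transcription factors ran from -0.31 for Irf8 to 0.30 for Irf1. Inhibitors and feedback genes ran from -0.13 for Atf3 to 0.40 for Il1rl1. Of 16 transcripts known to rise while tissue is digested by enzymes, 0 passed in edgeR (2 at an unadjusted p of 0.05), with a median of -0.06 and a range from -0.69 for Hspa1b to 0.32 for Dusp1.

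The levels of the 10 genes also differed between microglial states. States are clusters made from expression, so this spread is not a like measure to the difference between genotypes. How far other genes differed between states was not counted. Cells were clustered without these 10 genes, without the pathway genes and without genes that differed between the genotypes, and 7 states had at least 50 cells in every library. The states were named from markers or from their own leading genes. Lgi2-Gpnmb cells (9743) were led by Lgi2, Gpnmb and Hpse. Il7r-P2ry12 cells (7196) were led by Il7r, Treml4 and Gdf15, were shallow (median 3522 UMIs), and had 7 of 7 microglial markers, P2ry12 among them, above all other cells. Gdf15 and Treml4 were high there mainly in PRMT1Cx3cr1-KO mice. Gdf15 was at 14.9 and 26.2 CPM in PRMT1FL mice against 271 and 277 CPM, and Treml4 at 1.97 and 0.86 CPM against 14.3 and 52.9 CPM. Lgals3-Tmsb10 cells (6967) were led by Hbb-bs, Hbb-bt and Hba-a1, haemoglobin transcripts found almost solely in the PRMT1FL libraries, and are named from 2 genes that follow them, Lgals3 and Tmsb10. Il12b-Cxcl1 cells (6378) were led by Il12b, Cxcl1 and Dusp2. The others were MHC class II and CD11c-like (5023, led by Postn, Itgax and Cd74), proliferating-like (2573, led by Hmmr, Prc1 and Cenpf) and interferon-responsive-like cells (1036, led by Iigp1, Rsad2 and Ifit1). Levels by state are descriptions, without a test. The summed level of the 16 dissociation transcripts also differed between states, from 1545 CPM in Lgals3-Tmsb10 cells to 20675 CPM in Il12b-Cxcl1 and 23466 CPM in Il7r-P2ry12 cells, and its part in the patterns below was not tested.

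All 10 genes had their lowest mean in Lgals3-Tmsb10 cells, and for 9 of them no other state overlapped it. Tlr9, with 17 UMIs there, was the exception. How many of all genes were also lowest in the Lgals3-Tmsb10 state was not counted, so this is not shown to be particular to the 10. Cd14 ranged from 142 ± 6.4 CPM (SD, n = 4 mice) in that state to 1437 ± 81.0 CPM in Il12b-Cxcl1 cells, a ratio of 10.1. Between them, Lgi2-Gpnmb cells held 366 CPM, proliferating-like cells 461 CPM, interferon-responsive-like cells 590 CPM, Il7r-P2ry12 cells 714 CPM and MHC class II and CD11c-like cells 831 CPM. The last 3 overlapped one another over the 4 mice, but this pools the genotypes. In PRMT1FL mice Il7r-P2ry12 cells held 522 and 478 CPM, below the 874 and 968 CPM of MHC class II and CD11c-like cells. In PRMT1Cx3cr1-KO mice the order was reversed, at 924 and 933 CPM against 816 and 668 CPM. Thinned to 1000 UMIs per cell, 68.1% of Il12b-Cxcl1 cells and 12.9% of Lgals3-Tmsb10 cells held a Cd14 UMI. In a mixed cluster outside the microglia the share was 5.18% (3 libraries with at least 50 such cells). That cluster had 6 of 6 astrocyte, 6 of 6 oligodendrocyte, 5 of 5 endothelial and mural and 5 of 5 choroid plexus and ependyma markers above all other cells, and it also held 4140 CPM over the 7 microglial markers.

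Tlr2 was ordered much like Cd14, from 89.4 ± 11.7 CPM in Lgals3-Tmsb10 cells to 336 ± 15.7 CPM in Il12b-Cxcl1 cells (ratio 3.76). MHC class II and CD11c-like cells came next at 286 ± 19.7 CPM, without overlap. Tlr1, Tlr4 and Tlr6 were instead highest in Il7r-P2ry12 cells. Tlr4 was at 27.4 ± 3.2 CPM there and at 14.95 ± 1.7 CPM in the next state, MHC class II and CD11c-like, and it was near its lowest in the Il12b-Cxcl1 cells, at 10.6 ± 1.2 CPM. Cd14 thus shared its highest state with Tlr2 and not with Tlr4. Tlr6 was at 12.8 ± 1.1 CPM in Il7r-P2ry12 cells against 4.23 ± 0.35 CPM in Lgals3-Tmsb10 cells, a ratio of 3.03. Tlr1 was at 25.8 ± 2.1 CPM, overlapping the 23.8 ± 2.9 CPM of MHC class II and CD11c-like cells.

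Endosomal receptors had their peaks in the interferon-responsive-like or the Il7r-P2ry12 state. Tlr3, itself an interferon-induced gene, was at 61.2 and 64.2 CPM in the interferon-responsive-like cells of PRMT1FL mice and at 57.4 and 46.9 CPM in those of PRMT1Cx3cr1-KO mice. Its mean of 57.4 ± 7.6 CPM was 5.81 times that of Lgals3-Tmsb10 cells, and no other state overlapped it. The next state was Il7r-P2ry12, at 35.3 ± 7.9 CPM, while the other 5 held 9.89 to 17.2 CPM. Tlr7 was the flattest of the 10, with 94.5 ± 9.7 CPM in interferon-responsive-like cells, 86.7 ± 13.5 CPM in Il7r-P2ry12 cells and 51.5 ± 3.3 CPM at its lowest (ratio 1.83), and its highest states overlapped. Tlr13 peaked in Il7r-P2ry12 cells at 73.1 ± 12.2 CPM, above the 45.5 ± 6.3 CPM of Il12b-Cxcl1 cells without overlap. Tlr9 was highest in the same state, at 2.53 ± 0.72 CPM, overlapping the 2.10 ± 0.68 CPM of MHC class II and CD11c-like cells. Myd88 had 39.8 ± 4.3 CPM in interferon-responsive-like cells and 36.7 ± 4.0 CPM in Il7r-P2ry12 cells, which overlapped, and 15.8 to 26.0 CPM elsewhere.

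**Figure D2:**
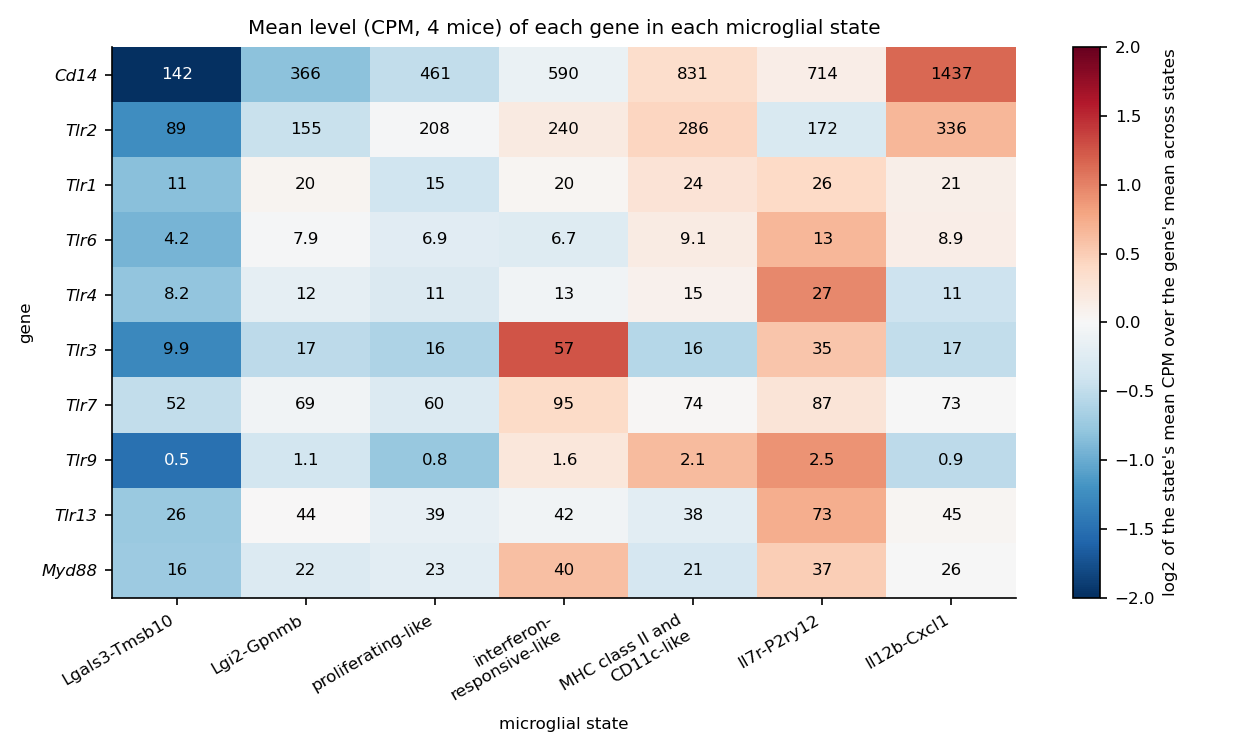
Mean level (CPM, 4 mice) of each gene, in rows, in each of the 7 microglial states, in columns, printed in each cell. Colour is the log2 of that mean over the gene's mean across states, so colours compare states within a row. The Lgals3-Tmsb10 column is the lowest in all 10 rows, with the share over all genes not counted. Cd14 and Tlr2 are highest in Il12b-Cxcl1 cells (1437 and 336 CPM), and Tlr3 is highest in interferon-responsive-like cells (57.4 CPM).

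**Figure D3:**
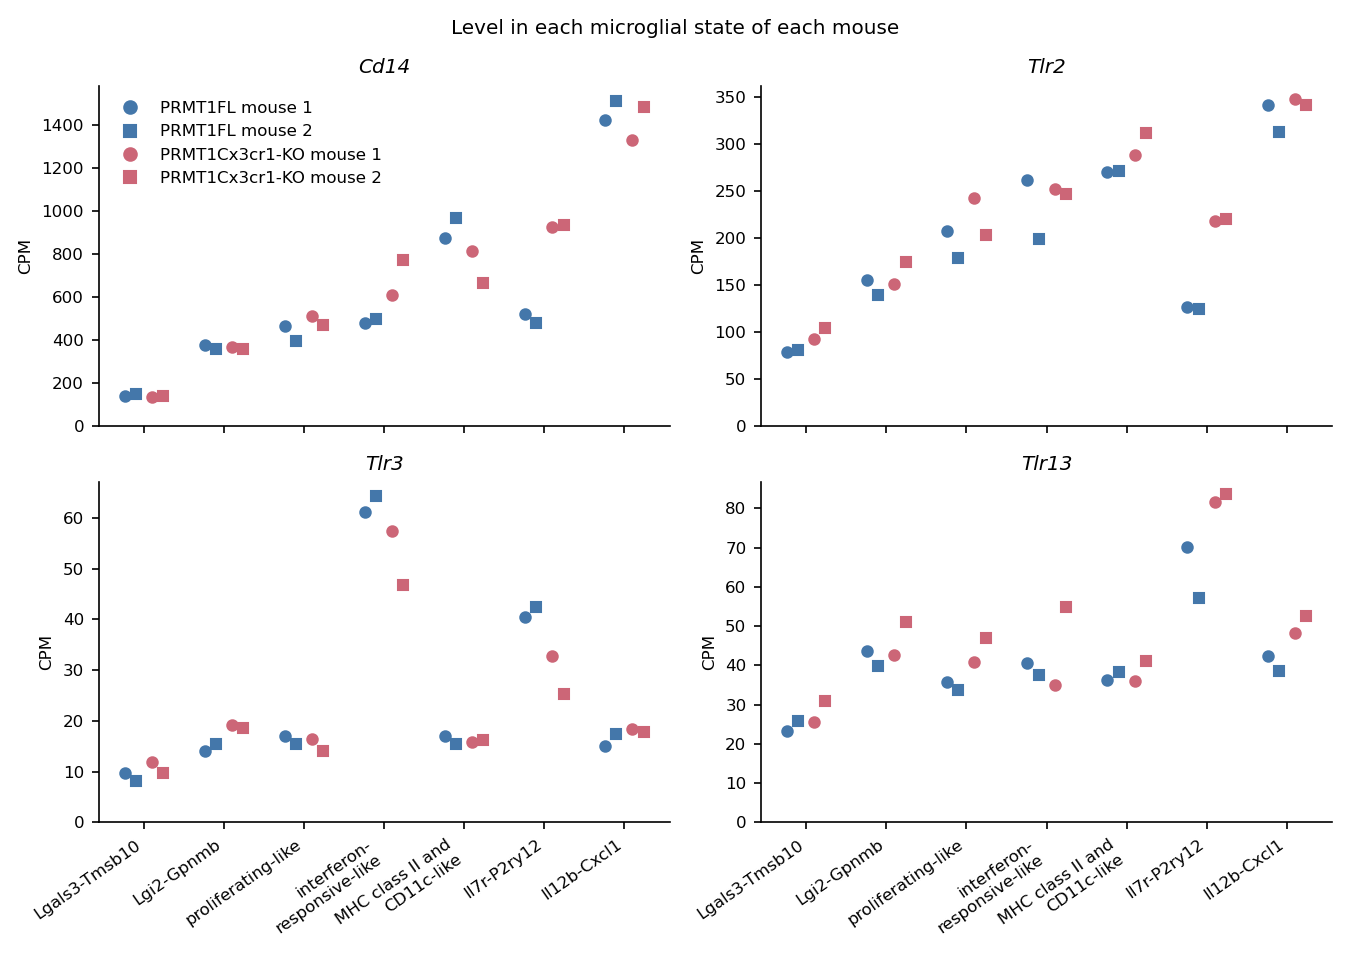
Level (CPM, axes from 0) of Cd14, Tlr2, Tlr3 and Tlr13 in each state of each mouse, with PRMT1FL in blue, PRMT1Cx3cr1-KO in red, circles for mouse 1 and squares for mouse 2. The genotypes part most in Il7r-P2ry12 cells, where Cd14 is 522 and 478 CPM in PRMT1FL and 924 and 933 CPM in PRMT1Cx3cr1-KO mice.

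By the share of cells with a UMI after thinning each cell to 1000 UMIs, 8 of the 10 genes kept their highest state. The exceptions were Tlr1, which moved to the interferon-responsive-like state, and Myd88, which moved to the Il7r-P2ry12 state. With marked doublets left out, all 10 kept it. Cells outside the microglial clusters were few. Cd14 was at 1200 ± 265 CPM in 356 border macrophage-like cells and 1312 ± 402 CPM in 315 monocyte-like cells (SD, n = 4 mice), both overlapping Il12b-Cxcl1 microglia. Tlr4 was at 28.9 ± 7.2 CPM in border macrophage-like cells and 16.03 ± 4.6 CPM in monocyte-like cells. Tlr7 was at 84.2 ± 10.0 CPM in the former and 50.4 ± 9.3 CPM in the latter, and the ranges did not overlap. In the Ms4a7 phagocyte-like cells, which only the PRMT1Cx3cr1-KO mice held in at least 50 cells, Tlr13 was at 74.1 and 82.3 CPM. Tlr3 was at 45.4 ± 14.7 CPM (SD, n = 3 mice, 30.5 to 59.9 CPM, 92 UMIs) in the mixed cluster of astrocyte, oligodendrocyte and vascular transcripts. This mean was above those of the 7 microglial states except the interferon-responsive-like one. By the thinned share of cells with a UMI the ranking did not hold. That share was 1.88% (0 to 4.93%), against 3.93% in Il7r-P2ry12 and 1.99% in Lgi2-Gpnmb cells. It was also below the interferon-responsive-like state and above the remaining states.

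Over the 28 sums of 4 libraries and 7 states, which share libraries and depth, the levels fell into loose groups (Pearson r of log2(CPM + 1), a description). Cd14 went with Tlr2 (r = 0.91) and hardly with Tlr4 (r = 0.37). Tlr3 went with Myd88 (r = 0.90) and Tlr7 (r = 0.86). Tlr6 went with Tlr13 (r = 0.83) and Tlr4 (r = 0.80). Of 7260 genes with a mean of at least 10 CPM, those most like Cd14 were Sdc4, Tnfaip3, Osm, Ccrl2, Gadd45b, Rasgef1b, Ier2 and Cd83 (r = 0.94 to 0.96). Those most like Tlr2 were Phlda1, Cxcl2, Smim3, Ets2, Ptgs2, Osm, Ccrl2 and Bcl2a1b (r = 0.91 to 0.95). Ier2 is on the list of dissociation transcripts. Those most like Tlr7 were Sema4d, Lrch3, Psme2b, Rasa4, Themis2, Slc12a9, Trim12a and Tor1aip1 (r = 0.91 to 0.94).

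Within single cells thinned to 1000 UMIs, Tlr2 was found in 20 to 24.8% of microglia with a Cd14 UMI and in 12.6 to 15.9% of those without, a ratio of 1.56 to 1.61 in the 4 libraries. For Tlr4 the same ratio was 0.87 to 0.94, below 1 in all 4 libraries. Inside states the ratio for Tlr2 was above 1 in all 4 libraries in 5 of the 7 states, from 1.04 to 1.29 in Il12b-Cxcl1 cells to 1.41 to 2.38 in proliferating-like cells. In the other 2, Il7r-P2ry12 (0.90 to 1.51) and interferon-responsive-like (0.79 to 1.3), it was above 1 in 3 of 4 libraries. For Tlr4 it was below 1 in all 4 libraries in Lgi2-Gpnmb and Il7r-P2ry12 cells, and above 1 in 3 of 4 in MHC class II and CD11c-like and in proliferating-like cells. At the depth as deposited, 19.7 to 21.9% of microglia had no UMI of any of the 8 receptors, and 6.24 to 7.99% had UMIs of 4. In Tlr2 and Cd14 the shares of cells with a UMI were 55.6 to 61.2% and 71.7 to 74.3% as deposited, and 15.2 to 19.6% and 35.5 to 40.9% after thinning.

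Inside states, the genotypes differed for few of the 10 genes, and mainly in Il7r-P2ry12 cells. Cd14 there was at 522 and 478 CPM in PRMT1FL mice and at 924 and 933 CPM in PRMT1Cx3cr1-KO mice. Neither PRMT1Cx3cr1-KO mouse came near the PRMT1FL range, and the log2 fold change was 0.95 ± 0.09 (SE; edgeR adjusted p = 1.7e-05). Tlr2 was at 127 and 125 CPM against 218 and 220 CPM, a log2 fold change of 0.85 ± 0.09 (edgeR adjusted p = 2.46e-05). Tlr13 was at 70.1 and 57.1 CPM against 81.6 and 83.6 CPM, which did not overlap (0.43 ± 0.10, edgeR adjusted p = 0.00929). Tlr3 moved the other way, from 40.6 and 42.5 CPM to 32.8 and 25.3 CPM (-0.47 ± 0.14, edgeR adjusted p = 0.0236).

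These 4 were called of the 10 genes tested in Il7r-P2ry12 cells, where 23.3% of all genes were called (12.5% higher and 10.8% lower). The count of members is thus to be read against a state in which much of the transcriptome differed. The other 6 were not called there, with log2 fold changes of 0.25 for Tlr1, 0.02 for Myd88, -0.03 for Tlr6, -0.14 for Tlr7, -0.20 for Tlr4 and -0.54 for Tlr9. The calls of Cd14 and Tlr2 held whichever mouse was left out, at 0.90 to 0.99 and 0.84 to 0.86. Without PRMT1FL mouse 2 the calls of Tlr13 (edgeR adjusted p = 0.157) and Tlr3 (adjusted p = 0.17) were lost, and without PRMT1Cx3cr1-KO mouse 2 that of Tlr3 (adjusted p = 0.147). Tlr13 was also lost without the cells highest in dissociation transcripts (0.30, edgeR adjusted p = 0.0643). Another clustering seed ended the call of Tlr3 (-0.21, edgeR adjusted p = 0.281) and left those of Cd14 and Tlr2 at 0.58 and 0.47, and DESeq2 called neither Tlr3 nor Tlr13.

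The Il7r-P2ry12 cells of the genotypes differed in more than these genes. They numbered 1621, 1317, 2023 and 2235 in the order of PRMT1FL mouse 1, mouse 2, PRMT1Cx3cr1-KO mouse 1 and mouse 2, with median depths of 3179, 3679, 3372 and 4037 UMIs. Over 7 homeostatic markers the summed level was 9979 and 10281 CPM in PRMT1FL mice against 6017 and 5301 CPM in PRMT1Cx3cr1-KO mice. Cx3cr1, the gene at the Cre locus, is among these 7, and its share of that fall was not separated. Over 8 lipid-handling phagocyte markers the summed level was 17286 and 15587 CPM against 31879 and 37305 CPM. P2ry12 itself was at 1716, 1739, 1743 and 1626 CPM and Tmem119 at 1106, 1195, 728 and 629 CPM. The stress markers summed to 190 and 194 CPM against 1059 and 1006 CPM. Marked doublets made up 2.47, 3.27, 4.89 and 6.09% of the cells, and the dissociation transcripts summed to 26456, 22457, 27526 and 19417 CPM, which overlapped between genotypes. The part of the first 3 marker lists in the 4 calls was not tested. With marked doublets left out, Cd14 and Tlr2 differed by 0.99 and 0.92 on the log2 scale.

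A clustering on 30 principal components divided most of the Il7r-P2ry12 cells, 4926 into a larger and 1716 into a smaller group. In the larger group Cd14 was at 548 and 522 CPM in PRMT1FL mice against 982 and 1140 CPM in PRMT1Cx3cr1-KO mice. In the smaller group it was at 383 and 362 CPM against 645 and 543 CPM. Tlr2 was at 137 and 140 CPM against 227 and 247 CPM in the larger group and at 72.6 and 74.5 CPM against 160 and 171 CPM in the smaller. Both genes were thus higher in the PRMT1Cx3cr1-KO mice in each group. Tlr3 was lower in them in each group, at 69.6 and 65.0 CPM against 36.7 and 26.2 CPM in the smaller and, by less, at 37.4 and 36.7 CPM against 32.8 and 25.3 CPM in the larger. Tlr13 was higher in them in the larger group, at 66.8 and 50.3 CPM against 77.2 and 84.7 CPM, and overlapped in the smaller. Other genes also differed between genotypes within the groups. In the larger group Tmem119 was at 1036 and 1105 CPM against 742 and 675 CPM. Tnf there was at 206 and 301 CPM against 1380 and 1204 CPM. In the smaller group Tmem119 was at 1623 and 1538 CPM against 721 and 548 CPM. Tnf there was at 19.7 and 5.91 CPM against 226 and 227 CPM. P2ry12 was slightly higher in PRMT1Cx3cr1-KO mice in the larger group and lower in the smaller. The genotype test inside states was also run on the 30-component clusters, with the clusters of the larger and the smaller group pooled. The cluster of the larger group also held 2736 MHC class II and CD11c-like, 795 Lgi2-Gpnmb and 660 Il12b-Cxcl1 cells. In that test the calls of Cd14 (0.19, edgeR adjusted p = 0.206), Tlr2 (0.16, adjusted p = 0.221) and Tlr3 (-0.20, adjusted p = 0.229) were lost. The part of the added cells in this was not tested.

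**Figure D4:**
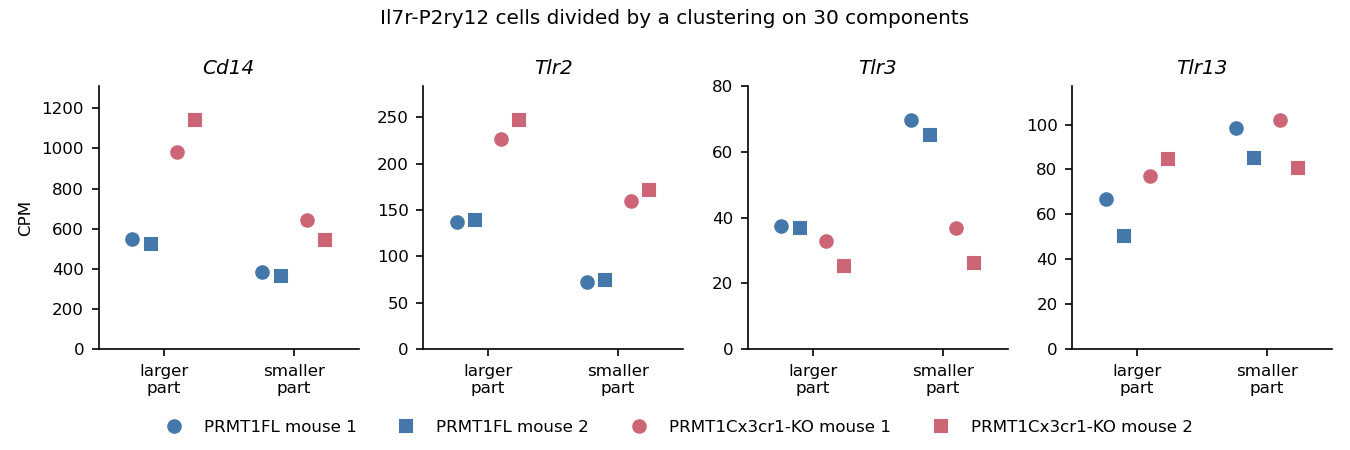
Level (CPM, axes from 0) of Cd14, Tlr2, Tlr3 and Tlr13 in the larger (4926 cells) and the smaller (1716 cells) group of Il7r-P2ry12 cells, with 1 point per mouse, PRMT1FL in blue and PRMT1Cx3cr1-KO in red. Cd14 and Tlr2 are higher in both PRMT1Cx3cr1-KO mice in both groups, while Tlr13 overlaps in the smaller one.

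Interferon-responsive-like cells gave the fifth call. Cd14 was at 478 and 500 CPM in those of PRMT1FL mice and at 610 and 771 CPM in those of PRMT1Cx3cr1-KO mice (0.45 ± 0.10, edgeR adjusted p = 0.00732), in a state where 1.31% of all genes were called (0.801% higher and 0.506% lower). The call was lost with 3 of the 4 mice left out in turn: PRMT1FL mouse 1 (0.42), PRMT1FL mouse 2 (0.48) and PRMT1Cx3cr1-KO mouse 2 (0.30). DESeq2 on all 4 mice did not call it either. None of the 10 passed in the other 5 states, where edgeR called 1.79% of all genes in Lgi2-Gpnmb cells, 4.54% in Lgals3-Tmsb10, 0.88% in Il12b-Cxcl1, 0.584% in MHC class II and CD11c-like and 0.61% in proliferating-like cells. In all, 5 of 67 tests of a gene in a state passed, against 4.76% of all such tests. In Il12b-Cxcl1 cells, where it was highest, Cd14 was at 1422, 1512, 1330 and 1485 CPM, and the genotypes overlapped.

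**Figure D5:**
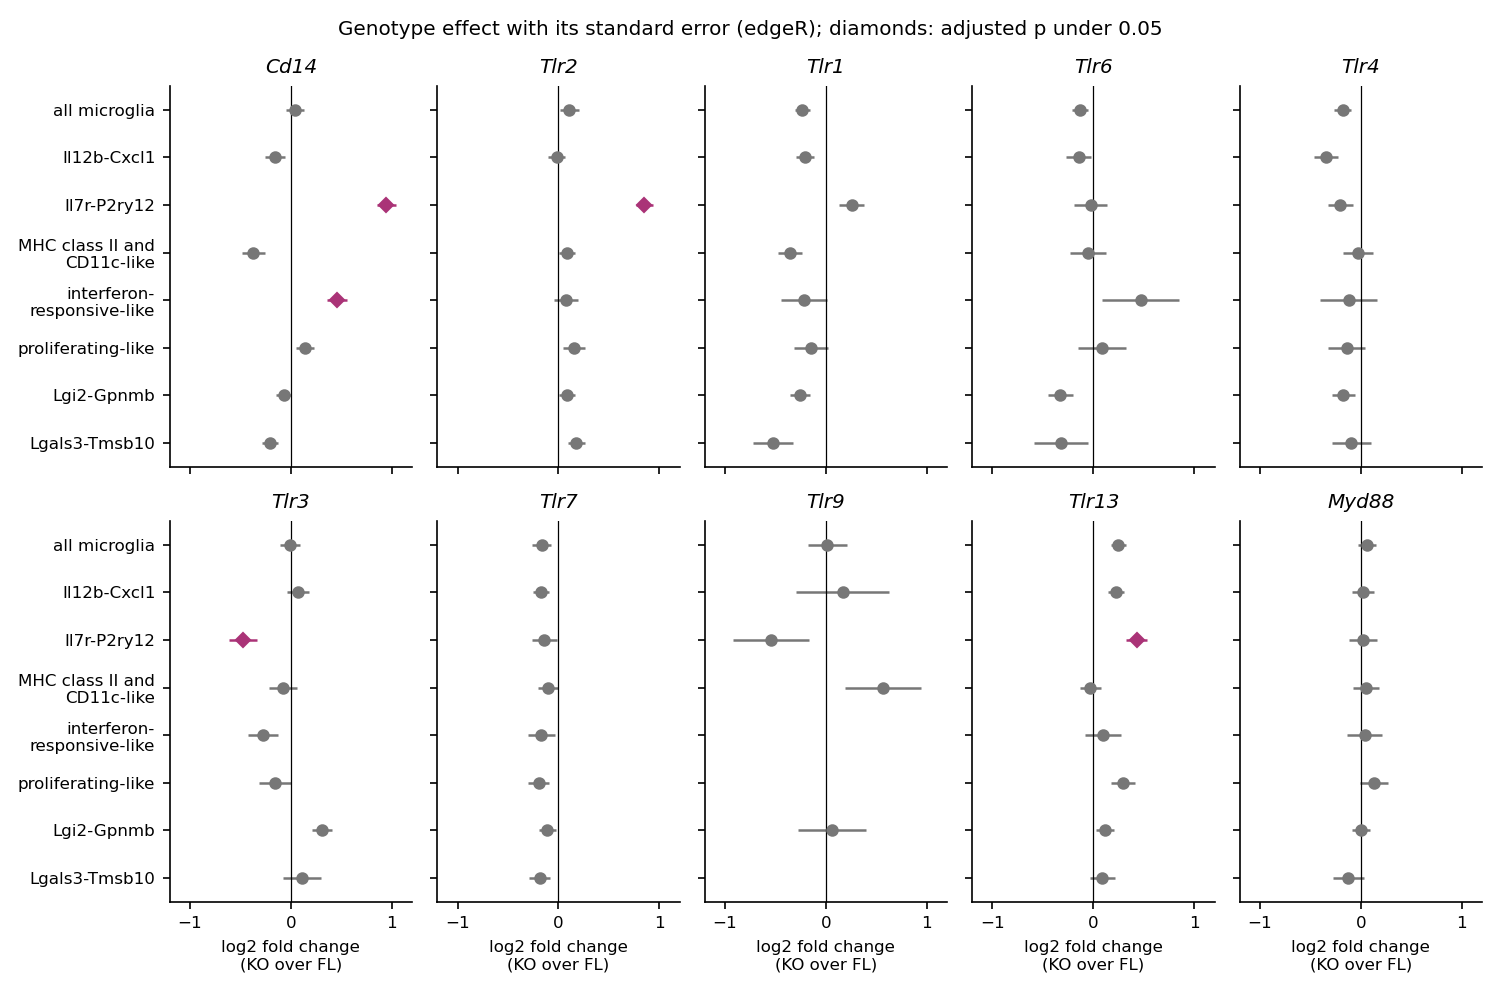
Log2 fold change (PRMT1Cx3cr1-KO over PRMT1FL) of each gene with its standard error, by edgeR, in all microglia and in each of the 7 states. Diamonds mark the 5 tests with an adjusted p under 0.05: Cd14, Tlr2, Tlr13 and Tlr3 in Il7r-P2ry12 cells and Cd14 in interferon-responsive-like cells.

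Whether an effect in 1 state differed from the mean effect in the other 6 was tested with limma voom, and it did in 6 of 70 tests of these genes, against 3.47% of all such tests. In Il7r-P2ry12 cells it differed for 5 of the 10 genes, against 23.1% of all genes tested. The difference was 0.99 ± 0.11 for Cd14 (voom adjusted p = 7.32e-06) and 0.77 ± 0.10 for Tlr2 (adjusted p = 8.77e-07) on the log2 scale. It was 0.56 ± 0.14 for Tlr1, 0.31 ± 0.10 for Tlr13 and -0.48 ± 0.12 for Tlr3 (voom adjusted p = 0.0028, 0.0169 and 0.0028). Tlr1 is counted here although its own change in that state did not pass, since in 6 of 6 other states its estimate was below 0. The calls of Cd14 and Tlr2 held whichever mouse was left out. That of Tlr1 was lost without PRMT1FL mouse 1 or PRMT1Cx3cr1-KO mouse 2 (voom adjusted p = 0.135 and 0.0649), that of Tlr13 without PRMT1FL mouse 2 or PRMT1Cx3cr1-KO mouse 1 (adjusted p = 0.331 and 0.206) or without the cells highest in dissociation transcripts (0.17, adjusted p = 0.317), and that of Tlr3 without PRMT1FL mouse 2 or PRMT1Cx3cr1-KO mouse 2 (adjusted p = 0.0806 and 0.0579).

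In MHC class II and CD11c-like cells the effect on Cd14 was lower than elsewhere (-0.56 ± 0.11, voom adjusted p = 0.0384), against 0.505% of all genes. Cd14 there was at 874 and 968 CPM in PRMT1FL mice and at 816 and 668 CPM in PRMT1Cx3cr1-KO mice. These cells numbered 545 to 1898 per mouse. Leaving out PRMT1FL mouse 1, PRMT1FL mouse 2 or PRMT1Cx3cr1-KO mouse 2 ended the call (-0.65, -0.46 and -0.36, voom adjusted p = 0.262, 0.731 and 0.107), and without PRMT1Cx3cr1-KO mouse 1 the difference was -0.78. The call was also lost without the cells highest in dissociation transcripts (-0.46, voom adjusted p = 0.153). Neither another clustering seed nor the clustering on more principal components gave a cluster matched to this state. With the other seed its cells fell mainly in clusters matched to Il12b-Cxcl1 (3363) and Il7r-P2ry12 (1632). With more components they fell mainly in clusters matched to Il7r-P2ry12 (2736) and Lgi2-Gpnmb (1633). The differences between states were not tested under either clustering, in this state or in Il7r-P2ry12 cells. In the other 5 states no difference passed for any of the 10, against 0% of all genes in Lgi2-Gpnmb cells, 0.00815% in Lgals3-Tmsb10 and in interferon-responsive-like cells, 0.147% in Il12b-Cxcl1 cells and 0.538% in proliferating-like cells.

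The rest of the pathway in Il7r-P2ry12 cells moved in both directions. Of 81 genes tested there, 14 were higher and 10 lower, with the same 23.3% of all genes called as background and a median log2 fold change of 0.06 over the 81. The genes named here were chosen after their values were seen. Of 13 cytokine and chemokine targets, 5 rose: Cxcl2, a neutrophil chemokine, by 3.39 (36.5 and 22.0 CPM against 315 and 276 CPM), Tnf by 2.40 (169 and 234 CPM against 1197 and 857 CPM), Ptgs2 by 1.74, Il12b by 1.18 and Ccl2 by 0.54. Il1b did not pass, at 411, 412, 809 and 371 CPM. Among 16 inhibitors and feedback genes, 4 rose, including Tnfaip3, which removes ubiquitin chains from the pathway (0.95), and Nfkbia, the inhibitor of NF-κB (0.80), and Cyld fell by 0.30.

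Genes that serve the receptors changed in both directions in the same cells. Among 7 co-receptors and ligand carriers, Ly96, which completes the TLR4 complex, fell by 0.33, Cd180 by 0.35 and Ly86 by 0.48. Cd36 rose by 2.47, from 0.49 and 0.86 CPM to 2.75 and 4.44 CPM, so its PRMT1FL values rest on few UMIs. Among 10 folding and trafficking genes, Unc93b1, which carries the endosomal receptors to their compartment, fell by 0.43 (989 and 1002 CPM against 732 and 695 CPM) and Cnpy3 fell by 0.34, while Pld3 rose by 1.12 and Hsp90b1 by 0.40. Both further receptors tested fell, Tlr12 by 1.06 and Tlr5 by 0.99. Among adaptors and kinases, Pik3ap1 fell by 0.30 and Irak1 by 0.36, while Irak2 rose by 0.47 and Map3k8 by 0.36. Of the 16 dissociation transcripts, Dusp1 rose by 0.58, and Hspa1a and Hspa1b fell by 0.83 and 1.36. None of the 10 transcription factors passed in edgeR, and Nfkb1 (-0.26, adjusted p = 0.0588) and Irf1 (0.78, adjusted p = 0.114) were below an unadjusted p of 0.05. Ccl2 was the gene of the pathway that rose in all 7 states, with log2 fold changes of 0.54 to 1.31 and edgeR adjusted p-values of up to 0.0284.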

How the data were processed

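Single-cell 3′ libraries (10x Genomics) of 4 mice were processed by the authors with Cell Ranger 3.1.0 against mm10, and the deposited values are raw UMI counts per gene and barcode. Per the labels, Seurat 3.2.0 and Scanpy 1.5.2 were also used. The filters of the study's methods were applied (detected genes from 200 to 6000, mitochondrial share up to 10%) and left 8170 to 11427 cells per library (median 6066 to 6960 UMIs). Cells were clustered with Scanpy 1.11.5 (20 principal components, Leiden resolution 0.4) without the 10 genes, the pathway genes and 886 genes that differed between genotypes. The automatic threshold of the doublet caller marked 0 to 2 cells per library and was taken not to have worked, so the cells highest in its score were marked (6.54 to 9.15%) and left out only as an alternative.

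UMIs were summed per library over microglia, or per library and state with at least 50 cells in each library. Genotypes were compared with edgeR 4.0.16 (TMM, filterByExpr, robust quasi-likelihood, Benjamini-Hochberg over all genes tested), with DESeq2 1.42.0 and limma 3.58.1 voom as alternatives. Genotype effects were compared between states with voom and the library as a random block. The genotype tests in the sums and between states were also run on simulated counts, whereas the counting and clustering steps were not. Levels are CPM of the summed UMIs, log2 values used a pseudocount of 1, and thinning drew 1000 UMIs per cell. Intervals are 95%. Labels give each sample its group, and the mouse was the replicate.

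All 10 genes were named. Of the pathway lists, genes that passed in the microglial sums and the highest and lowest estimate of each list were named, and other genes were chosen after their values were seen. The members and lists were chosen with earlier results of these data known. The same-numbered libraries of the genotypes were checked for pairing and are not paired by any label. Alternatives were the normalization, filter, test, cells, clustering, thinning and each mouse left out.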

Additional observations from a re-analysis of the deposited data

Results flagged for a closer look

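A genotype effect differed from its mean in the other 6 states in 6 tests of a gene in a state (limma voom, adjusted p under 0.05 over all genes of that state). In Il7r-P2ry12 cells the difference on the log2 scale was 0.99 for Cd14, 0.77 for Tlr2, 0.56 for Tlr1, 0.31 for Tlr13 and -0.48 for Tlr3. In MHC class II and CD11c-like cells, a state to which neither alternative clustering had a matched cluster, it was -0.56 for Cd14. In Il7r-P2ry12 cells 23.1% of all genes differed in the same way. None of the 6 differences was tested under another clustering.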

How the results depend on the processing

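The 114 genes called in the microglial sums became 201 without TMM, 717 with DESeq2, 64 with voom, 1290 with no filter on low counts, 704 with the replicate block, 886 over all cells, 189 without the cells highest in dissociation transcripts and 230 with cells thinned. They ranged from 4 to 2561 with each mouse left out. The count of the 10 genes called in those sums, 0, became 1 with no filter (Tlr13, edgeR adjusted p = 0.0336) and ranged from 0 to 3 with each mouse left out, and it was 0 under the other 11 alternatives. Inside states, the 5 calls became 2 with 30 components and 2 with DESeq2, and ranged from 2 to 9 with each mouse left out. The 6 differences between states were 3 to 5 with each mouse left out, and 4 to 7 under 3 other alternatives. The 7 came from edgeR with the library as a fixed term, which also called Tlr3 in Lgi2-Gpnmb cells (0.47, adjusted p = 0.0079). The correlation of deviations between same-numbered mice was 0.0047. With 2 mice per genotype both pairs give the same value and the crossed pairs its negative, so it cannot decide whether the mice are paired. The replicate block changed no call of the 10 genes.

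Estimates near 0 changed sign. Tlr3 in the sums was 0.068 without TMM, 0.0012 with no filter, 0.012 over all cells, 0.018 without marked doublets, 0.028 without proliferating-like cells, 0.029 without the cells highest in dissociation transcripts, and -0.13 to 0.12 with each mouse left out. Tlr9 was -0.0039 without proliferating-like cells, -0.020 without the cells highest in dissociation transcripts, and -0.091 to 0.12 with each mouse left out. Myd88 was -0.0067 with cells thinned. Without PRMT1Cx3cr1-KO mouse 1, Cd14 was -0.072 (-0.072 to 0.15 over the 4 mice) and Myd88 -0.061 (-0.061 to 0.18). With another clustering seed, Cd14 in Lgi2-Gpnmb cells was 0.39 (edgeR adjusted p = 0.0358), against -0.07. The causes were not tested. Intervals and p-values rest on 2 mice per genotype, and Tlr9, with 92 to 113 UMIs per library, is limited by depth.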
